A study of Mus musculus with 4 samples.

Results

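Complex I of the respiratory chain takes electrons from NADH and pumps protons across the inner mitochondrial membrane. Most of its subunits are encoded in the nucleus, and the 7 that form the core of its membrane arm are encoded by the mitochondrial genome. These 7 genes, *mt-Nd1*, *mt-Nd2*, *mt-Nd3*, *mt-Nd4*, *mt-Nd4l*, *mt-Nd5* and *mt-Nd6*, were taken by symbol from the 31055 features of an scRNA-seq dataset of the mouse embryo. They were read in the 20198 of 24239 cells that had at least 3000 genes, at least 7500 UMIs (unique molecular identifiers, each marking 1 captured transcript) and at most 7% UMIs from mt- genes. The cells were thus selected on a share that contains the members' own UMIs, and the genes were chosen with their values in these libraries known.

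The dataset held cells of the caudal end of E8.5 mouse embryos born to *Grhl3*+/- intercrosses. The WT pool held the cells of 5 wild-type embryos, and the *Grhl3*-null pool held those of 3 embryos without functional *Grhl3*, a transcription factor gene needed for neural tube closure. The null allele was carried in every cell of the embryo. Each pool was run in 2 reactions, so every p-value below compares 2 pools, measures only the spread between reactions and holds no spread between embryos, and genotype and pool cannot be told apart.

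The filtered libraries held 4781 to 5459 cells with a median of 33391 to 38070 UMIs per cell. *Grhl3* itself was counted 878 and 803 times in WT, against 12 and 14 times in *Grhl3*-null. At most 7 cell barcodes were shared by any pair of libraries. The mitochondrial share of all UMIs was 3.49% and 3.62% in WT and 3.67% and 3.77% in *Grhl3*-null, and the 7% limit removed 81 and 90 WT and 148 and 170 *Grhl3*-null cells that passed the other filters. Male cells, called from Y-linked and *Xist* UMIs, made up 26.5% and 27.0% of the sexed cells in WT and 55.6% and 57.5% in *Grhl3*-null, and within a pool male and female cells came from different embryos.

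In mammals both strands of the mitochondrial genome are transcribed as long precursors, and the excision of tRNAs releases the mRNAs between them. The product of *mt-Nd6* is the only complex I subunit, and the only protein, encoded on the opposite strand. Its mRNA is known for having little or no poly(A) tail, unlike the other mitochondrial mRNAs, whose poly(A) tails can also complete a stop codon. The libraries measured here were made from poly(A) RNA with a 3′ kit.

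All 7 genes are single-exon coding genes on chromosome M of mm10 (GENCODE annotation). On the + strand lie *mt-Nd1* at chrM:2751-3707, *mt-Nd2* at chrM:3914-4951, *mt-Nd3* at chrM:9459-9806, *mt-Nd4l* at chrM:9877-10173, *mt-Nd4* at chrM:10167-11544 and *mt-Nd5* at chrM:11742-13565. On the - strand lies *mt-Nd6* at chrM:13552-14070. The genes *mt-Nd4l* and *mt-Nd4* share 7 bases on 1 strand, so the counting of reads from this stretch is uncertain. The genes *mt-Nd5* and *mt-Nd6* share 14 bases on opposite strands, where reads are counted by strand. The last 30 bases of the latter pair are shown because these genes meet end to end, with the shared bases in capitals:
mt-Nd5: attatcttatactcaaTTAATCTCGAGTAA
mt-Nd6: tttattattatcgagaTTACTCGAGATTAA
The ends of 2 other members are shown because they differ in how the reading frame closes, with the stop in capitals:
mt-Nd3: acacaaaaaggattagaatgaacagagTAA
mt-Nd4: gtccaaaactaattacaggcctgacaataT
The annotated *mt-Nd3* ended in a whole stop codon and *mt-Nd4* in the first base of one. The coding sequence of *mt-Nd6* held 28.1% G and 5.97% C, whereas G made up 8.00% to 11.6% and C 22.1% to 29.97% of the other members. The longest run of A was 3 bases in *mt-Nd6*, 8 in *mt-Nd2* and between 4 and 7 in the rest.

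Measured per kilobase of coding sequence, the 7 members spanned a wide range of levels. Their mean over the 4 libraries was 2694 CPM per kilobase for *mt-Nd1* (CPM being the UMIs of a gene per 1000000 UMIs of the library), 2129 for *mt-Nd2*, 1901 for *mt-Nd3* and 1795 for *mt-Nd4*. It was 453 for *mt-Nd4l*, 222 for *mt-Nd5* and 134 for *mt-Nd6*, the last being the lowest of the 13 mitochondrial coding genes on this scale. As each UMI marks 1 captured transcript, division by length raises short genes. Without it *mt-Atp8* was lower, with a mean of 43.4 CPM in WT and 47.3 CPM in *Grhl3*-null, against 63.4 and 75.3 CPM for *mt-Nd6*. *mt-Nd6* gave 14117 to 17980 UMIs per library and a median of 2 UMIs per cell. At least 1 UMI was found in 75.7% to 79.9% of the filtered cells, whereas each of the other members was found in at least 93.9%. The 7 members together made up 23.4% and 23.4% of the mitochondrial UMIs in the WT libraries and 23.7% and 23.3% in the *Grhl3*-null libraries, and thus did not separate the genotypes. Across single cells of a library, the level of *mt-Nd1*, *mt-Nd2* and *mt-Nd4* followed that of all other mitochondrial genes with Pearson's r of 0.90 to 0.95, and that of *mt-Nd3* with 0.81 to 0.85. The r was 0.47 to 0.49 for *mt-Nd4l*, which has few UMIs per cell, and -0.01 to 0.12 for *mt-Nd6*. These correlations are a description over the cells of 1 library, which share its depth, and no relation is read from the low r of counts as sparse as those of *mt-Nd6*.

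Over all filtered cells, *mt-Nd3* was the member with the largest difference between the genotypes, and the 3 members that give most UMIs were almost level. *mt-Nd3*, a small subunit at the junction of the membrane arm with the arm that binds NADH, stood at 572 and 557 CPM in WT and at 782 and 734 CPM in *Grhl3*-null. Both *Grhl3*-null libraries were above both WT libraries, with a log2 fold change of 0.40 (SE 0.035, edgeR adjusted p = 0.000211). *mt-Nd4l* stood at 128 and 128 CPM in WT and 138 and 144 CPM in *Grhl3*-null, with a log2 fold change of 0.12 (SE 0.024, edgeR adjusted p = 0.00726).

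*mt-Nd5*, one of the antiporter-like subunits through which protons are pumped, stood at 379 and 393 CPM in WT and 416 and 432 CPM in *Grhl3*-null. Its log2 fold change was 0.11 (SE 0.026, edgeR adjusted p = 0.0161). This call was lost without WT library 1 (adjusted p = 0.0998). *mt-Nd1*, beside the quinone site, stood at 2475 and 2627 CPM in WT and 2576 and 2636 CPM in *Grhl3*-null, and the genotypes overlapped (edgeR adjusted p = 0.982). The antiporter-like *mt-Nd2* and *mt-Nd4* overlapped as well, with log2 fold changes of -0.0027 (SE 0.022) and 0.0081 (SE 0.023), and neither passed the test. Among all genes, 35.5% of 17168 were called in this comparison, 2928 higher and 3169 lower in *Grhl3*-null, against 4 of the 7 members, all higher. With library size alone in place of TMM scaling the split over all genes was 3793 higher and 2303 lower, and the same 4 members were called.

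*mt-Nd6* stood at 62.8 and 64.0 CPM in WT and 79.5 and 71.1 CPM in *Grhl3*-null. The groups did not overlap, and the log2 fold change was 0.22 (SE 0.050, edgeR adjusted p = 0.0115). It fell from 0.30 without *Grhl3*-null library 2 to 0.13 without *Grhl3*-null library 1. The direction was not that of both sexes. In male cells *mt-Nd6* was lower in *Grhl3*-null (log2 fold change -0.40, SE 0.039, edgeR adjusted p = 8.8e-05), and in female cells it was higher (0.66, SE 0.057, edgeR adjusted p = 4.35e-05).

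**Figure D1:**
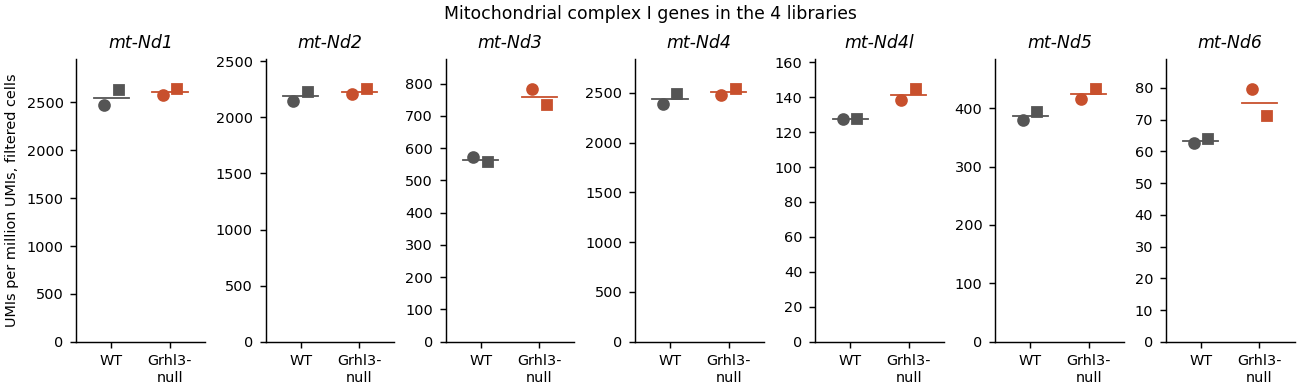
Level of the 7 members in CPM, 1 panel per gene with its own vertical axis from 0. Circles are library 1 and squares library 2 of each genotype, and lines are the means of 2 libraries. *mt-Nd3* in *Grhl3*-null (782 and 734) lies well above WT (572 and 557), and the *mt-Nd1* values of the genotypes overlap.

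The sex difference was most marked for *mt-Nd6*. Male cells held 70.7 and 75.8 CPM in WT and 57.4 and 54.3 CPM in *Grhl3*-null. Female cells held 60.7 and 60.7 CPM in WT and 104 and 90.8 CPM in *Grhl3*-null. Thus in WT the male cells were higher, and in *Grhl3*-null the female cells were higher. These levels are over all cell types, whose shares within a sex also differed between the genotypes. The genotype difference in female cells exceeded that in male cells by 1.06 on the log2 scale (edgeR interaction test within libraries, adjusted p = 3.66e-10). The same difference was 0.17 for *mt-Nd5* (adjusted p = 1.58e-05), 0.07 for *mt-Nd2* (adjusted p = 0.00363) and 0.07 for *mt-Nd3* (adjusted p = 0.0134) by the edgeR test, and *mt-Nd1*, *mt-Nd4* and *mt-Nd4l* did not pass it. By this test 37.5% of 16165 genes were called. Since cells of different sex came from different embryos, a difference between sexes and one between embryos cannot be told apart.

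*mt-Nd3* was higher in *Grhl3*-null in both sexes. It stood at 584 and 570 CPM in WT male cells and at 774 and 721 CPM in *Grhl3*-null male cells. In female cells it stood at 575 and 554 CPM in WT and at 795 and 755 CPM in *Grhl3*-null. The log2 fold change was 0.37 in male cells (SE 0.039, edgeR adjusted p = 0.000143) and 0.43 in female cells (SE 0.033, edgeR adjusted p = 2.32e-05), where 26.8% and 38.3% of all genes tested were called. The value for *mt-Nd5* in male cells was 0.003 (edgeR adjusted p = 0.955).

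To examine the members by cell type, the cells were clustered without mt- genes and each cluster was named from markers. This gave 14 named classes, each called "-like" because the name was rebuilt from markers, and left 3 clusters unnamed. The class named for both surface ectoderm and neural plate border is called surface ectoderm-like for short. The neuromesodermal progenitor-like class joined a cluster of 2254 cells and another of 523 cells led by *Pou5f1* and *Cdx1*. The unnamed clusters, the largest of 3337 cells, were in no test by class. The sum of the members other than *mt-Nd6* varied little between named classes of WT cells, by a factor of 1.496, from 7027 CPM in neuroepithelium-like to 10510 CPM in primordial germ cell-like cells. *mt-Nd6* varied by a factor of 3.13 over the named classes, from 27.9 CPM in gut-like to 87.3 CPM in pre-somitic mesoderm-like cells. These levels are given without a test.

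The order of classes differed between *mt-Nd6* and the sum of the other 6 members. The sum of the other 6 was highest in primordial germ cell-like (10510 ± 540 CPM, SD, n = 2, on 16 and 5 cells) and notochord-like cells (10345 ± 25.9), which overlapped. Gut-like cells came next (9707 ± 508). The 9 classes from pre-somitic mesoderm-like (8811 ± 200) down to mesenchyme 1-like (8263 ± 267) each overlapped the next. Neuromesodermal progenitor-like (7459 ± 25.6) and neuroepithelium-like cells (7027 ± 339) were lowest among the named classes and apart from each other. Below them in WT lay the unnamed clusters led by *Hoxc10* and *Hoxa10* (5712 ± 24.3) and by *Lefty2* (1089 ± 728).

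For *mt-Nd6* the pre-somitic mesoderm-like (87.3 ± 6.68 CPM), somitic mesoderm-like (86.8 ± 1.58) and neuromesodermal progenitor-like cells (86.5 ± 0.20) were highest among the named classes in WT and overlapped. Of the unnamed clusters, the one led by *Hoxc10* and *Hoxa10* stood above them in WT (101.4 ± 1.11) and the one led by *Lefty2* far below (4.93 ± 3.00). Neuroepithelium-like cells followed (69.8 ± 1.25) and overlapped mesenchyme 1-like cells (68.1 ± 19.5). Notochord-like (31.0 ± 0.93), erythroid-like (30.6 ± 1.93) and gut-like cells (27.9 ± 2.94) were lowest among the named classes. Erythroid-like cells overlapped both of the others, and notochord-like and gut-like cells did not overlap each other. In *Grhl3*-null the neuromesodermal progenitor-like (144 ± 5.64) and somitic mesoderm-like cells (132 ± 4.31) were highest, and primordial germ cell-like cells lowest (17.0 ± 0.69), on 13 and 26 cells.

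Across the 14 classes of WT cells, log2 *mt-Nd6* ran against log2 *mt-Nd4* (Pearson's r -0.69), *mt-Nd3* (-0.61), *mt-Nd1* (-0.57) and *mt-Nd2* (-0.48). Its r with *mt-Nd5* was 0.13 and with *mt-Nd4l* 0.48. The closest pair was *mt-Nd1* with *mt-Nd3* (0.92), but the other 6 members did not all run together. *mt-Nd4l* had an r of -0.28 with *mt-Nd4*, and of 0.07 to 0.14 with *mt-Nd1*, *mt-Nd2*, *mt-Nd3* and *mt-Nd5*. These values describe 14 classes that share libraries, depth and the UMI total to which each level is scaled.

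**Figure D2:**
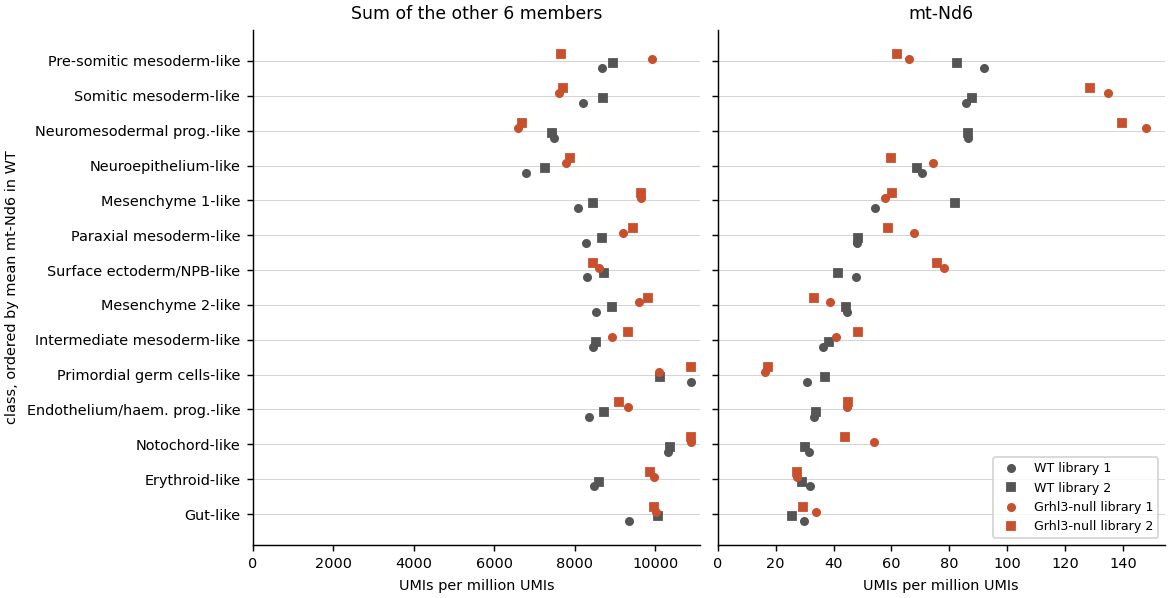
CPM in 14 named classes for the sum of the members other than *mt-Nd6* (left) and for *mt-Nd6* (right), 1 point per library, classes ordered by mean *mt-Nd6* in WT. Neuromesodermal progenitor-like cells are high for *mt-Nd6* and low for the sum, and in them and in somitic mesoderm-like cells both *Grhl3*-null libraries stand above 120 for *mt-Nd6*. The *Grhl3*-null points of pre-somitic mesoderm-like cells rest on 4 cells per library.

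The cells with at least 1 *mt-Nd6* UMI, after thinning each cell to 7500 UMIs, made up 45.8% and 45.3% of neuromesodermal progenitor-like cells in WT and 64.8% and 62.8% in *Grhl3*-null. In gut-like cells they made up 21.6% and 15.6% in WT and 25.9% and 17.4% in *Grhl3*-null. Without thinning the shares were 88.1%, 87.1%, 95.1% and 95.5% in neuromesodermal progenitor-like and 63.3%, 56.0%, 60.0% and 54.8% in gut-like cells in the same order. No class is known to lack the gene. The lowest share was in an unnamed cluster of 323 cells with a median of 16468 UMIs and 574 to 1603 CPM of the other 6 members, where 0% to 4.26% of the thinned cells had a UMI. Free RNA would add to each share, and its part was not tested.

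Within the 12 classes that had at least 20 cells in every library, 39 of the 84 pairs of member and class were called by edgeR, and the members did not move together. *mt-Nd3* was higher in *Grhl3*-null in 12 of 12 classes, with log2 fold changes from 0.25 in surface ectoderm-like to 0.48 in erythroid-like cells. *mt-Nd4l* was higher in 5 classes and lower in none. *mt-Nd5* was higher in 4 and lower in 1, *mt-Nd1* higher in 4 and lower in 2, *mt-Nd4* higher in 1 and lower in 2, and *mt-Nd2* lower in 2. *mt-Nd6* was higher in 5 classes and lower in 1. These fits pool the sexes, whose mix within a class differed between the genotypes. In WT, 388 and 317 paraxial mesoderm-like cells were female and 52 and 44 male. In *Grhl3*-null, 66 and 55 were female and 309 and 316 male. There *mt-Nd1* was called (0.12), but it was 0.05 in male and 0.04 in female cells and called in neither. The part of the sex mix in the class counts was not tested.

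The share of all genes tested that was called in the same fits was 22.3% in paraxial mesoderm-like, 21.0% in neuromesodermal progenitor-like, 19.5% in mesenchyme 2-like and 19.3% in gut-like cells. It was 14.1% in surface ectoderm-like, 11.5% in somitic mesoderm-like, 4.93% in neuroepithelium-like, 3.10% in intermediate mesoderm-like and 3.07% in notochord-like cells. It was 0.924% in mesenchyme 1-like, 0.609% in endothelium-like and 0.466% in erythroid-like cells. In a fit over all 12 classes, the genotype difference of each of the 7 members varied between classes (edgeR interaction test, adjusted p from 2.43e-18 for *mt-Nd1* to 9.28e-05 for *mt-Nd4l*), as it did for 26.4% of 15198 genes.

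Neuromesodermal progenitor-like cells, which resemble the bipotent progenitors of spinal cord and paraxial mesoderm, set *mt-Nd6* furthest against the rest. *mt-Nd6* stood at 86.3 and 86.6 CPM in WT and at 148 and 140 CPM in *Grhl3*-null, a log2 fold change of 0.72 (SE 0.038, edgeR adjusted p = 1.39e-09). *mt-Nd1* stood at 2208 and 2196 CPM in WT and at 1792 and 1818 CPM in *Grhl3*-null, a log2 fold change of -0.30 (SE 0.025, edgeR adjusted p = 3.22e-07). *mt-Nd4* (-0.27), *mt-Nd5* (-0.21) and *mt-Nd2* (-0.13) were lower as well, while *mt-Nd3* was higher (0.37). Outside complex I, *mt-Cytb* (-0.25), *mt-Atp6* (-0.21), *mt-Co1* (-0.12) and *mt-Co2* (-0.08) were lower and *mt-Co3* higher (0.08) in these cells.

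Somitic mesoderm-like cells had the same arrangement for *mt-Nd6* (log2 fold change 0.60), *mt-Nd3* (0.29), *mt-Nd1* (-0.27), *mt-Nd4* (-0.19) and *mt-Nd2* (-0.12), all called by edgeR. The surface ectoderm-like class is named for the neural plate border too, the main site of *Grhl3* expression at E8.5 in the study. In these cells *mt-Nd6* stood at 47.9 and 41.4 CPM in WT and at 78.3 and 75.8 CPM in *Grhl3*-null. The log2 fold change was 0.75 (SE 0.065, edgeR adjusted p = 1.83e-07), and *mt-Nd1* (-0.14) and *mt-Nd4* (-0.09) did not pass the test there. In male cells of this class *mt-Nd6* did not pass the test (log2 fold change -0.14, SE 0.129, edgeR adjusted p = 0.565), and in female cells its value was 1.34. In mesenchyme 2-like cells, led by *Col3a1* and *Nkx2-3*, *mt-Nd6* was lower in *Grhl3*-null, with 44.7 and 44.5 CPM in WT and 38.6 and 33.1 CPM in *Grhl3*-null (log2 fold change -0.32, SE 0.069, edgeR adjusted p = 0.00559). There *mt-Nd1*, *mt-Nd3*, *mt-Nd4*, *mt-Nd4l* and *mt-Nd5* were all higher (0.15 to 0.40). In male cells of this class *mt-Nd3* (0.43) and *mt-Nd4l* (0.26) were called, and *mt-Nd1* (0.05), *mt-Nd4* (-0.03) and *mt-Nd5* (0.11) were not.

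**Figure D3:**
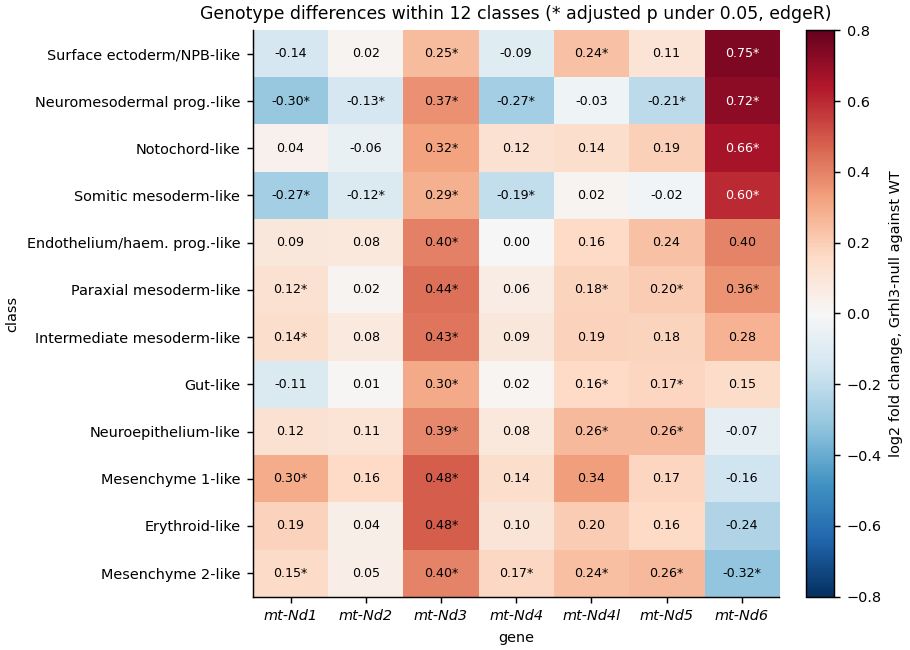
Log2 fold change of each member, *Grhl3*-null against WT, within 12 classes, ordered by *mt-Nd6*. Red is higher and blue lower in *Grhl3*-null, and a star marks an edgeR adjusted p under 0.05. The *mt-Nd3* column is red and starred in all 12 classes, and the *mt-Nd6* column runs from 0.75 to -0.32.

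The class differences in *mt-Nd6* were mostly those of female cells. In 8 classes with at least 20 cells of each sex in every library, *mt-Nd6* was higher in female *Grhl3*-null cells in 7 and lower in 1, mesenchyme 2-like, with log2 fold changes from -0.42 to 1.34. In male cells it was higher in none and lower in 1, neuroepithelium-like, with log2 fold changes from -0.32 to 0.10. Of the male WT cells, 19.1% and 18.2% were neuromesodermal progenitor-like and 19.9% and 22.3% somitic mesoderm-like. In male *Grhl3*-null cells these shares were 10.7% and 10.4%, and 5.31% and 5.17%. The part of these shares in the male fall over all cells was not tested. Summed over the 8 classes, 16.1% of all gene tests were called in female and 8.57% in male cells.

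In neuromesodermal progenitor-like cells the female level was 80.0 and 78.9 CPM in WT and 176 and 167 CPM in *Grhl3*-null. The male level was 100 and 106 CPM in WT and 111 and 110 CPM in *Grhl3*-null, with no overlap but no call (log2 fold change 0.10, SE 0.053, edgeR adjusted p = 0.362). Against the other 6 members the male value was called (log2 fold change 0.25, SE 0.067, edgeR adjusted p = 0.00462), and the female value was 1.30. *mt-Nd1* was lower in this class in male (-0.32, edgeR adjusted p = 3.63e-05) and female cells (-0.30, edgeR adjusted p = 3.4e-06). *mt-Nd4* (-0.12) and *mt-Nd5* (-0.13) did not pass the test in its male cells and were lower in its female cells (-0.40 and -0.26). In somitic mesoderm-like cells *mt-Nd4* (-0.08) and *mt-Nd2* (-0.08) did not pass in male cells and were lower in female cells (-0.31 and -0.16). In the 8 classes *mt-Nd3* was higher in 6 among male and in 8 among female cells, and its log2 fold changes were all positive, from 0.13 to 0.50 and from 0.30 to 0.47.

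**Figure D4:**
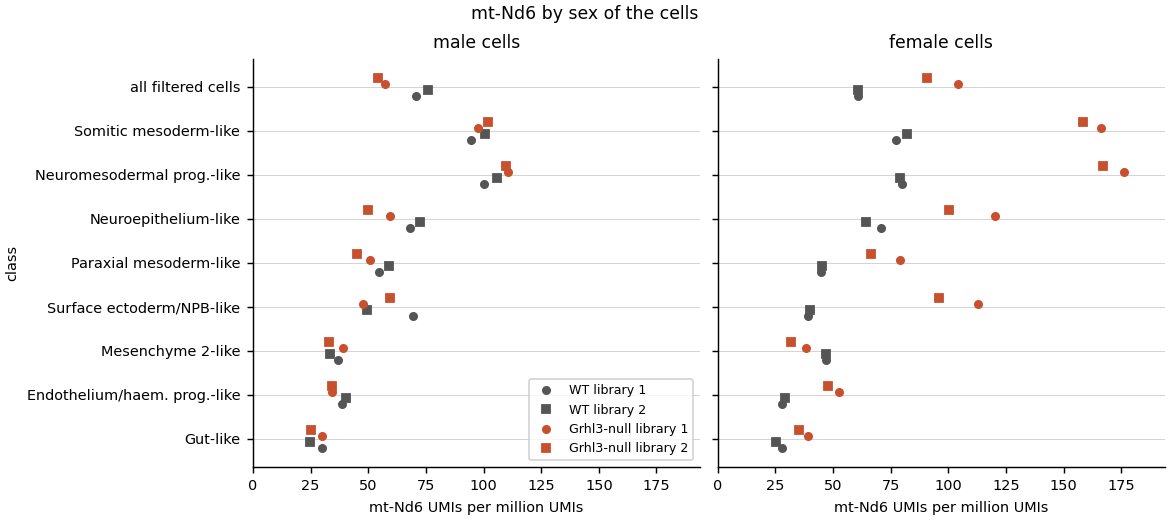
*mt-Nd6* in CPM in male cells (left) and female cells (right), over all filtered cells and in 8 classes, 1 point per library. Female *Grhl3*-null cells lie to the right of female WT cells in all classes shown but mesenchyme 2-like, and male cells of the genotypes lie close together or in the opposite order.

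Pre-somitic mesoderm-like cells, high in *mt-Nd6*, numbered 511 and 492 in the WT libraries and 4 and 4 in the *Grhl3*-null libraries. In WT, 500 and 484 of them were female and 1 and 1 male. An unnamed cluster led by *Hoxc10* and *Hoxa10* held 248 and 256 WT and 18 and 24 *Grhl3*-null cells. Without both, the log2 fold change of *mt-Nd6* over all cells was 0.31 (edgeR adjusted p = 0.00267), and that of *mt-Nd3* 0.40.

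To set *mt-Nd6* directly against the rest, its UMIs were divided by those of the other 6 members. The ratio was 0.776% and 0.759% in WT and 0.925% and 0.815% in *Grhl3*-null, a log2 fold change of 0.18 (SE 0.049, edgeR adjusted p = 0.0108), in a fit in which 31.1% of all genes were called. Without WT library 1, WT library 2 or *Grhl3*-null library 1 this call was lost. In male cells the log2 fold change was -0.42 and in female cells 0.61. Among the 12 classes, *mt-Nd6* against the other 6 was higher in *Grhl3*-null in 5 and lower in 2. The share of all genes called in these class fits was not recorded, so no weight is put on the counts. The ratio was 1.15% and 1.16% in WT and 2.24% and 2.09% in *Grhl3*-null neuromesodermal progenitor-like cells (log2 fold change 0.90, edgeR adjusted p = 3.92e-10). It was also higher in surface ectoderm-like (0.78), somitic mesoderm-like (0.74), notochord-like (0.59) and paraxial mesoderm-like cells (0.25), all called by edgeR. The ratio fell from 0.525% and 0.499% to 0.403% and 0.337% in mesenchyme 2-like cells (-0.47, edgeR adjusted p = 3.66e-05). It was lower, by a log2 fold change of -0.39, in mesenchyme 1-like cells (edgeR adjusted p = 0.013). There it was 0.673% and 0.969% in WT, on 72 and 47 cells, and 0.598% and 0.623% in *Grhl3*-null, so the WT libraries lay far apart. With TMM scaling *mt-Nd6* overlapped between the genotypes in this class and was not called (-0.16).

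Along the mitochondrial share of single cells, *mt-Nd6* fell between 2% and 6% while the other members rose. In cells with 2% to 3% mt- UMIs the 6 others summed to 6174 CPM and *mt-Nd6* to 109 CPM. In cells with 5% to 6% the others summed to 12321 CPM and *mt-Nd6* to 42.9 CPM. Beyond that *mt-Nd6* rose again, to 46.1 CPM from 6% to 7% and 72.2 CPM above 10%. These groups mix classes, whose mitochondrial shares differ, such as 3.02% in neuromesodermal progenitor-like and 4.36% in gut-like cells of WT. The others rise with the share by construction, since they are part of it.

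Just inside the limit, the 513 cells with 6% to 7% held 6.97% of mt- UMIs as *mt-Nd1*, 5.62% as *mt-Nd2*, 6.80% as *mt-Nd4* and 1.78% as *mt-Nd3*. Just outside, the 209 cells with 7% to 8% held 6.91%, 5.84%, 6.56% and 1.76%. The shares of *mt-Nd5*, *mt-Nd4l* and *mt-Nd6* were 0.916%, 0.305% and 0.0720% inside and 0.876%, 0.316% and 0.0673% outside. The members' makeup was thus similar on both sides, and without the limit *mt-Nd3* (log2 fold change 0.41) and *mt-Nd6* (0.21) stayed called by edgeR.

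**Figure D5:**
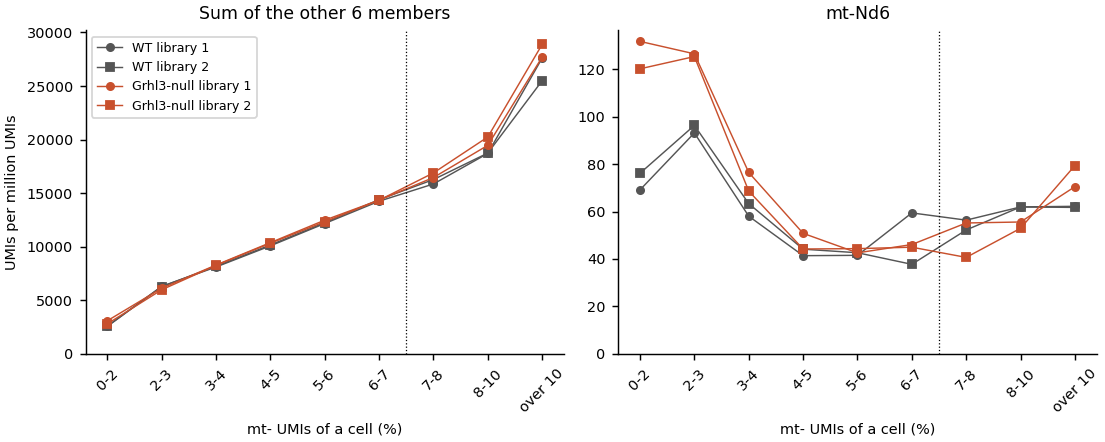
Sum of the 6 other members (left) and *mt-Nd6* (right), in CPM, in cells grouped by their percentage of mt- UMIs, 1 line per library. The dotted line is the 7% limit. The sum climbs in every library, while *mt-Nd6* drops from 2% to 3% towards 4% to 5% and then stays under 80.

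The other mitochondrial coding genes did not share 1 direction either. *mt-Co3* (log2 fold change 0.20, SE 0.025, edgeR adjusted p = 0.00111) and *mt-Co1* (0.15, SE 0.027, edgeR adjusted p = 0.00513), both of cytochrome c oxidase, were higher in *Grhl3*-null. *mt-Co2* (-0.04), *mt-Cytb* (-0.0020), *mt-Atp6* (-0.02) and *mt-Atp8* (0.09) did not pass the test. *mt-Nd3* lies next to *mt-Co3* on the + strand, with only a tRNA gene between them. They had the largest 2 log2 fold changes among the 12 + strand coding genes, a pair singled out after the values were seen.

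Among nuclear complex I genes more were lower than higher. Of 36 nuclear subunits tested, 3 were higher and 18 lower in *Grhl3*-null, with a median log2 fold change of -0.09 against 0.0026 over all genes, of which 35.5% were called. The largest falls were in *Ndufv1* (-0.24), which holds the NADH site, and in the accessory subunits *Ndufa12* (-0.23) and *Ndufs4* (-0.20). The accessory *Ndufa3* (0.21), *Ndufv3* (0.18) and *Ndufa2* (0.13) were higher. In male cells alone 4 were higher and 9 lower with a median of -1e-04, where 26.8% of all genes were called. In female cells 4 were higher and 16 lower with a median of -0.05, where 38.3% were.

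Of 18 assembly factors tested, 1 was higher and 11 lower, with a median of -0.11, against 35.5% of all genes called in either direction. *Ndufaf7* (-0.18), *Ndufaf6* (-0.16) and *Ndufaf5* (-0.15) fell most, and *Ndufaf8* was higher (0.14). In male cells 1 was higher and 2 lower, where 26.8% of all genes were called, and in female cells 2 and 11, where 38.3% were.

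Of 29 genes of mitochondrial transcription and RNA handling, 2 were higher and 12 lower (median -0.05), against 35.5% of all genes called in either direction. With library size alone 5 were higher and 10 lower. *Polg* (0.22), the polymerase of mitochondrial DNA, and *Twnk* (0.09), its helicase, were higher. *Hsd17b10* (-0.21), of the RNase that frees tRNA ends, *Tefm* (-0.16), an elongation factor, and *Mterf2* (-0.16) fell most. *Grsf1*, whose product binds G-rich mitochondrial RNA and which is also one of the neuromesodermal markers used, was lower (-0.13, SE 0.026, edgeR adjusted p = 0.00817). *Lrpprc* (0.04) and *Slirp* (0.15), which stabilise mitochondrial mRNAs, *Mtpap* (-0.04), which adds their poly(A) tails, and *Tfam* (-0.02) and *Polrmt* (-0.02), of the transcription machinery, did not pass the test. In male cells 2 of the list were higher and 2 lower, with a median of 0.03, and in female cells 4 and 12, with a median of -0.05, where 26.8% and 38.3% of all genes were called.

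Among 7862 genes with at least 10 CPM, the 5 outside the mitochondrial genome whose mean log2 level over the 14 classes was most like *mt-Nd6* were *Tmem132c* (Pearson's r 0.90), *AC160336.1* (0.89), *Maoa* (0.88), *Ldha* (0.87) and *Hoxc4* (0.87). *Ldha* encodes a lactate dehydrogenase subunit of glycolysis and *Maoa* a monoamine oxidase of the outer mitochondrial membrane. The 5 most like the sum of the other 6 members were *Scand1* (0.83), *Commd3* (0.80), *Ndufb5* (0.79), itself a nuclear complex I subunit, *Ctsd* (0.79) and *Etfa* (0.78). On the same measure the r of *mt-Nd6* with that sum was -0.82, with *Tfam* 0.68, with *Grsf1* 0.46, with *Mtpap* 0.30, with *Slirp* -0.33 and with *Lrpprc* -0.42.

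Some signs of cell state differed between the genotypes. Of 11 genes induced by dissociation, 2 were higher (*Atf3*, *Jund*) and 4 lower (*Fos*, *Fosb*, *Ier2*, *Junb*) in *Grhl3*-null, against 35.5% of all genes called in either direction. *Fosb* stood at 2.99 and 2.85 CPM in WT and 1.25 and 1.08 CPM in *Grhl3*-null (log2 fold change -1.35, edgeR adjusted p = 5.7e-05), and *Fos* at 4.57 and 4.66 CPM in WT and 2.65 and 2.71 CPM in *Grhl3*-null (-0.81, edgeR adjusted p = 5.46e-05), both larger differences than that of any member over all cells. The summed level of the 11 genes, most of it *Ier2* and *Jund*, was 217 and 222 CPM in WT and 206 and 216 CPM in *Grhl3*-null. Of 4 nuclear-retained long RNAs, 2 were higher and none lower, against the same 35.5% of all genes, so little can be read from so few. Their sum was 2213 and 2184 CPM in WT and 2406 and 2374 CPM in *Grhl3*-null. Haemoglobin RNA, the product of erythroid cells, summed to 1753 to 2424 CPM over the libraries without separating the genotypes. The part of these, of the mitochondrial share and of the sexes in the differences above was not tested beyond the values given.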

How the data were processed

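ScRNA-seq was performed by the authors on the caudal part of E8.5 embryos with a 10X Genomics 3′ kit, 2 reactions per genotype pool. The authors aligned reads to mm10 with Cell Ranger (file headers give 3.0.0) and the counts the authors deposited are UMIs of each gene in each cell, unfiltered. Cell Ranger counts reads in the sense of each gene.

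The study's filters were applied. Clustering used sctransform 0.4.2 and Seurat 5.3.0 in R 4.3.3 (3000 variable features without mt- genes, 30 principal components, 20 neighbours, resolution 0.4). A cluster was named if at least 3 of its 30 leading genes were markers of 1 type over 1.5 times those of the next, with no other type ahead among the 10 first. Scrublet in scanpy 1.11.5 marked under 0.5% of cells automatically, so doublets were kept, and the 5% highest scores (240 to 273 cells per library) were removed in an alternative. Counts summed per library, or per class and library, were tested with edgeR 4.0.16 (TMM, filterByExpr, quasi-likelihood, Benjamini-Hochberg over all genes, threshold 0.05), and with DESeq2 1.42.0 as an alternative. Differences of the genotype effect between sexes or classes were tested by an interaction term with the library as a term. On simulated data with 200 genes changed by 2 on the log2 scale, 199 were recovered over all cells (17136 genes tested, 4 wrong calls). Cells were called male with at least 2 Y-linked and at most 2 *Xist* UMIs, and female with at least 3 *Xist* and at most 1 Y-linked UMIs. The filtered depth was 209833527 to 226723903 UMIs per library.

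Named genes were the 7 members, the other mitochondrial coding genes, *Lrpprc*, *Slirp*, *Mtpap*, *Grsf1*, *Tfam*, *Polrmt*, the 3 called genes with the largest change in each direction of each nuclear list, and the 5 most like *mt-Nd6* or the other 6 by class. Members and lists were chosen with earlier results of these data known. Sequences came from GENCODE transcripts of mm10.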

Additional observations from a re-analysis of the deposited data

Results flagged for a closer look

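The genotype difference of 4 members differed between female and male cells, tested by an interaction term in edgeR. The female minus male difference of the log2 fold change was 1.0581 for *mt-Nd6* (adjusted p = 3.66e-10), 0.169 for *mt-Nd5* (adjusted p = 1.58e-05), 0.0724 for *mt-Nd2* (adjusted p = 0.00363) and 0.0668 for *mt-Nd3* (adjusted p = 0.0134). Over all filtered cells the sexes moved in opposite directions for *mt-Nd6*, and for *mt-Nd3* both were higher in *Grhl3*-null. Within 8 classes the male log2 fold changes of *mt-Nd6* ran from -0.32 to 0.10, and 1 was called, as lower. By this test 37.5% of all genes were called.

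The genotype difference also differed between the 12 classes for every member, by the F statistic of the edgeR interaction test. F was 38.12 for *mt-Nd1* (adjusted p = 2.43e-18), 24.55 for *mt-Nd4* (adjusted p = 1.26e-14) and 24.48 for *mt-Nd6* (adjusted p = 1.32e-14). It was 17.45 for *mt-Nd5* (adjusted p = 7.19e-12) and 14.12 for *mt-Nd2* (adjusted p = 2.8e-10). It was lowest for *mt-Nd3* (6.389, adjusted p = 2.1e-05) and *mt-Nd4l* (5.577, adjusted p = 9.28e-05), and the log2 fold change of *mt-Nd3* was positive in 12 of 12 classes.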

How the results depend on the processing

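The genotype calls of *mt-Nd1*, *mt-Nd2*, *mt-Nd3* and *mt-Nd4* over all filtered cells kept their side of the threshold under every alternative run. In male cells only, *mt-Nd6* reversed to -0.3986, its value against the other 6 members reversed to -0.421, *mt-Nd5* was 0.003 and no longer passed, and the pairs of member and class called numbered 14, over 8 classes in place of 12. With mitochondrial UMIs as library size, *mt-Nd4l* (0.0827) and *mt-Nd5* (0.0718) no longer passed. Leaving out each library in turn, which assumes that the lone library of a genotype varies like the others, gave 0.0817 to 0.1301 for *mt-Nd5* and 0.0868 to 0.2691 for *mt-Nd6* against the other 6 members. The former no longer passed without WT library 1 and the latter without WT library 1, WT library 2 or *Grhl3*-null library 1. For these changes the cause was not tested beyond the smaller number of libraries, cells or classes. Replicate numbers name reactions on 1 pool and do not pair the genotypes. With the replicate block, 7048 genes and 50 pairs of member and class were called, against 6097 and 39 without it, and no member's call over all cells changed. DESeq2 called 4160 genes. With 14117 to 17980 *mt-Nd6* UMIs per library the depth limits the small classes most. The sex-split ratio, the classes split by sex and the values without pre-somitic mesoderm-like cells were chosen after seeing the data.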
